A study of Mus musculus with 5 samples.

Results

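Lhx8, Isl1, Chat, Slc18a3 and Ngfr, 5 genes of the basal forebrain cholinergic neuron, were followed on 5 Affymetrix mouse expression arrays. Every probe set annotated with 1 of these symbols alone was taken, which gave 8 of 45101 probe sets and 5 of the 18193 genes with a named probe set. Lhx8, Chat and Slc18a3 had 1 probe set each, Isl1 had 2 and Ngfr had 3. The genes were chosen for their role and not by their values, although results of these data were known when they were chosen.

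The RNA came from mouse embryos at E15.5 (embryonic day), from the progenitor zones (ventricular and subventricular) of the rostral medial ganglionic eminence (MGE), the ventral forebrain swelling that gives rise to many cortical interneurons and to basal forebrain cholinergic neurons. There was 1 array of primary neuronal culture from Dlx1/2 mutant embryos, 1 of culture from wild type (WT) embryos, 2 of tissue from Dlx1/2 mutants and 1 of tissue from WT. Dlx1 and Dlx2 are homeodomain transcription factors of the developing ventral forebrain. The labels do not give the mutant allele, strain, days in culture or any pooling of embryos, and the title of the WT tissue array writes its genotype as "+/_" where its description says WT. Nothing in them tells if the mutant tissue pair stems from different embryos, so p-values measure only how far these arrays scatter, and that scatter may be technical.

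In mice, Lhx8 is a LIM-homeodomain transcription factor that the cholinergic neurons of the basal forebrain and striatum need in order to form, and it acts downstream of Nkx2-1, the factor that specifies the MGE. Isl1, another LIM-homeodomain factor, can join Lhx8 in a complex held together by the cofactor Ldb1, and this complex turns on genes for making and loading acetylcholine. Chat encodes choline acetyltransferase, which makes acetylcholine, Slc18a3 encodes the transporter that loads it into synaptic vesicles, and Ngfr encodes the p75 neurotrophin receptor, a classic surface marker of mature basal forebrain cholinergic neurons. Isl1 is also expressed in striatal projection neurons and motor neurons, and Ngfr in neural crest derivatives.

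The windows around the annotated gene starts of Lhx8 and Isl1 are shown because these 2 genes were bright enough to test and moved in opposite directions in mutant tissue. Each runs 5′ to 3′ on the minus strand from 250 bases before to 50 bases after the start (RefSeq, GRCm38.p6), and capitals mark the homeodomain core TAAT or its complement ATTA. The Lhx8 window lies at chr3:154330511-154330810 and the Isl1 window at chr13:116309639-116309938.
Lhx8: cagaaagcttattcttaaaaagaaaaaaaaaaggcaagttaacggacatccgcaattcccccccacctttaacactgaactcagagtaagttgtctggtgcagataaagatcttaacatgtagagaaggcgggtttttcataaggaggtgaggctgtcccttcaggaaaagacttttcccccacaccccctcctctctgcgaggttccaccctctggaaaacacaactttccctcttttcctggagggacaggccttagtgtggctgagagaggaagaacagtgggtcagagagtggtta
Isl1: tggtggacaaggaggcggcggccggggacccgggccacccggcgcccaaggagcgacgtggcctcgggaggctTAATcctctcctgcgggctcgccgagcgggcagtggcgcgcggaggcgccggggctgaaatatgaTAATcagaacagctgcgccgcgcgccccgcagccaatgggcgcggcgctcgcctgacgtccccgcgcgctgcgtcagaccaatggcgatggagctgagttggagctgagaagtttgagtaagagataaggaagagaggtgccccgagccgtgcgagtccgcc

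Both strands were searched in all 32851 windows of this length, and TAAT was found in 58.0% of them. The Isl1 window held 2 matches, which start at bases 74 and 139 of the window, the Slc18a3 window held 1, and the windows of Lhx8, Chat and Ngfr held 0. The longer TAATTA, which contains TAAT, occurred in 5.3% of all windows and in 0 of the 5 windows here. The Isl1 window is rich in CpG dinucleotides, with 37 and a G + C content of 69.0%, while that of Lhx8 holds 4 at 47.0%, against medians of 7 and 52.7% over all windows. Chat and Slc18a3 share 1 locus: in the RefSeq table Slc18a3 lies wholly inside the span of Chat on chromosome 14. These matches describe letters in a window and say nothing of binding.

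Dlx1 and Dlx2 followed the labels on every array. Dlx1 had a signal of at most 2.80 on the 3 mutant arrays, against 603 or more on the WT arrays, and Dlx2 had 21.7 at most against at least 331. The MGE markers Lhx6 (374 to 1321), Sox6 (449 to 889) and Maf (120 to 2666) were present on all arrays. Of 4 MGE markers, Nkx2-1 included, 2 were lower and 0 higher in mutant tissue, where 6.7% of all genes tested were called lower. Across both preparations 1 was lower and 0 higher, against 0.253% called lower. That gene was Maf, which fell by 2.91 in tissue and 2.74 across both (limma, adjusted p = 3.8e-07 and 0.00025), and by 2.51 in culture. Nkx2-1 read 60.6 and 78.4 in mutant tissue and 43.3 in WT tissue, but in mutant culture 12.6 and in WT culture 16.2, below the pooled median signal of 27.8. All 6 neuronal genes examined, among them Tubb3 and Dcx, were bright on all arrays, 5 of them higher in mutant than in WT tissue. Of the marker lists for other cells, 5 of 8 astrocyte and 5 of 6 oligodendrocyte lineage genes were higher in mutant tissue, and 11 of 11 cell cycle genes were lower, where 8.59% of all genes tested were called higher and 6.7% lower. Across both preparations 3 of these astrocyte and 2 of these oligodendrocyte lineage genes were higher, against 0.814% of all genes. Of the 11 cell cycle genes 0 were called there, and their median in culture was 0.17. Of the 6 neuronal genes 1 was higher there, and their median in culture was −0.05. Sex-linked genes also moved with genotype. Xist, the RNA made by the inactive X chromosome, read 106 and 143 in mutant tissue and 625 in WT tissue, and 97.2 in mutant culture and 318 in WT culture, a fall across both of 2.12 ± 0.21 (limma, adjusted p = 0.0038). The Y-linked gene Kdm5d rose across both by 1.40 ± 0.24 (limma, adjusted p = 0.043), and the Y-linked Eif2s3y rose in tissue by 2.31 ± 0.22 (3.8e-05). Their part in the results below was not tested, and in bulk RNA fewer cells of a type and less RNA per cell cannot be told apart.

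Of the 8 probe sets, 3 were bright and 5 dim. For testing, signals were quantile normalized, raised to a floor of 5.15 (the pooled 20th percentile) where they lay under it, and put on the log2 scale. A gene was tested if its brightest probe set had a mean over 5 arrays above the pooled median, 4.80 log2. Lhx8 and Isl1 passed this filter among 11063 genes, while Chat, Slc18a3 and Ngfr did not. Differences are on the log2 scale, of mutant over WT or of culture over tissue, and carry the standard error (SE) of a limma fit, and adjusted p-values are Benjamini-Hochberg values over all genes tested.

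**Figure D1:**
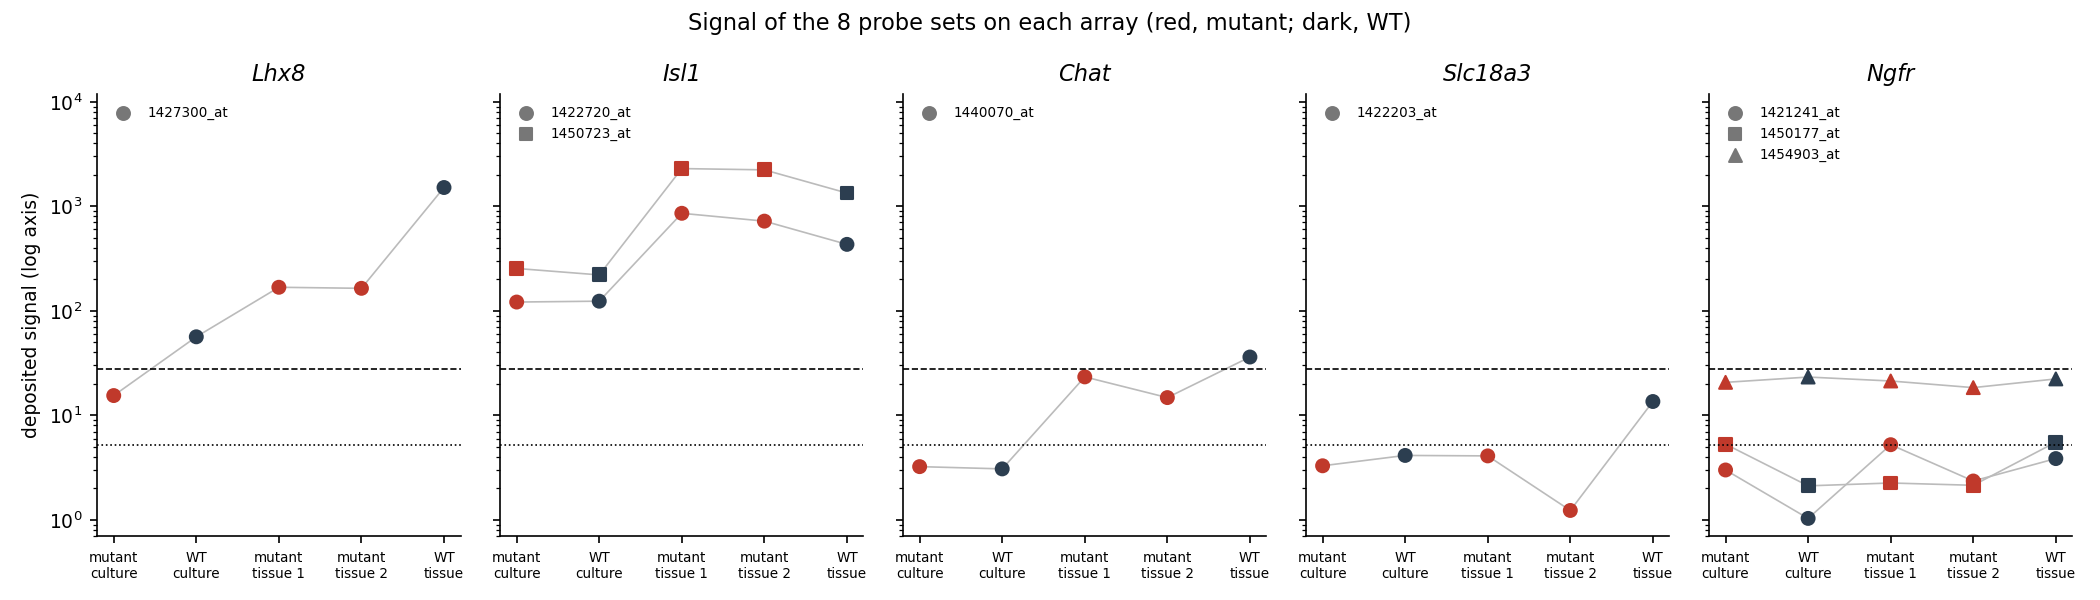
Deposited signal (log axis) of each of the 8 probe sets on the 5 arrays, red for mutant and dark for WT, with a dotted line at the floor of 5.15 and a dashed line at the pooled median of 27.8. Lhx8 is lower in mutants within each preparation, Isl1 is higher in mutant tissue by both probe sets, and the other 3 genes lie near or below the dashed line.

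Lhx8 was strongly reduced in mutants. In tissue its signal was 168 and 164 in the 2 mutant arrays, against 1513 in WT. In culture it was 15.46 in mutant and 56.4 in WT. Every mutant value thus lay below the WT value of its own preparation, and WT culture lay below both mutant tissue arrays. On the log2 scale, mutant tissue averaged 7.33 ± 0.04 (SD, n = 2) and WT tissue was 10.56.

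The fall in tissue was 3.24 ± 0.13 (SE), or 9.42-fold (limma, adjusted p = 3.0e-08), where 15.3% of the genes tested were called, 6.7% lower and 8.59% higher. Only 7 of the 11063 genes had a more negative difference, so Lhx8 ranked 8. Across both preparations the fall was 2.69 ± 0.28, or 6.44-fold (limma, adjusted p = 0.0049), where 1.07% of genes were called, 0.253% lower and 0.814% higher, and Lhx8 ranked 9. When limma estimated its prior variance with no trend on intensity, the 2 calls were lost, with limma adjusted p of 0.068 in tissue and 0.15 across both, and without the filter on dim genes the call across both was lost (0.40). With the first or the second mutant tissue array left out, the call across both held (0.016 each, limma).

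In culture, with 1 array for each genotype and no test, the Lhx8 difference was −1.95, or 3.87-fold lower in mutant. Among all genes tested 1.83% were lower by at least 2-fold and 1.85% higher, and Lhx8 ranked 35 from the lowest. Because the mutant culture signal of 15.46 is dim, the size depends on how low values are treated, and with an offset of 16 in place of the floor it was −1.27.

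Isl1 moved the other way in tissue. Its brighter probe set, 1450723_at, read 2296 and 2232 in mutant tissue, against 1339 in WT tissue. The second, 1422720_at, which was designed on the same sequence record, read 857 and 721 in mutant tissue and 432 in WT tissue. With both probe sets the 2 mutant values lay above the WT value. The brighter one rose by 0.81 ± 0.08, or 1.76-fold (limma, adjusted p = 4.3e-05). Taken as probe sets in a fit of every probe set, the second rose by 0.85 ± 0.13 (limma, adjusted p = 0.0044). The call for the gene was lost without an intensity trend (limma adjusted p = 0.12) and without the filter on dim genes (0.090).

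In culture Isl1 gave similar signals in both genotypes. They were 254 in mutant and 221 in WT for 1450723_at, and 121 in mutant and 124 in WT for 1422720_at. The differences, 0.20 and −0.06, have opposite signs, so the 2 probe sets give no common direction in culture. Across both preparations Isl1 differed by 0.55 ± 0.15 and missed the threshold (limma, adjusted p = 0.16).

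The genotype effect on both factors differed between culture and tissue. For Lhx8 the culture effect minus the tissue effect was 1.28 ± 0.30 (limma, adjusted p = 0.045), that is, a smaller fall in culture. For Isl1 it was −0.62 ± 0.15 (limma, adjusted p = 0.045), a smaller rise in culture. Both values lie just under the threshold, in a fit with 1 residual degree of freedom that called 4.48% of genes, 2.21% with a positive and 2.27% with a negative interaction. Neither call held when every probe set was tested on its own (limma adjusted p = 0.074 and 0.078), when a gene's probe sets were averaged (0.15 and 0.17), without the filter (0.19 and 0.14), or without the trend (0.24 and 0.32). The size for Lhx8 also rests on its dim mutant culture signal of 15.46. With an offset of 16 in place of the floor it was 1.85.

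**Figure D2:**
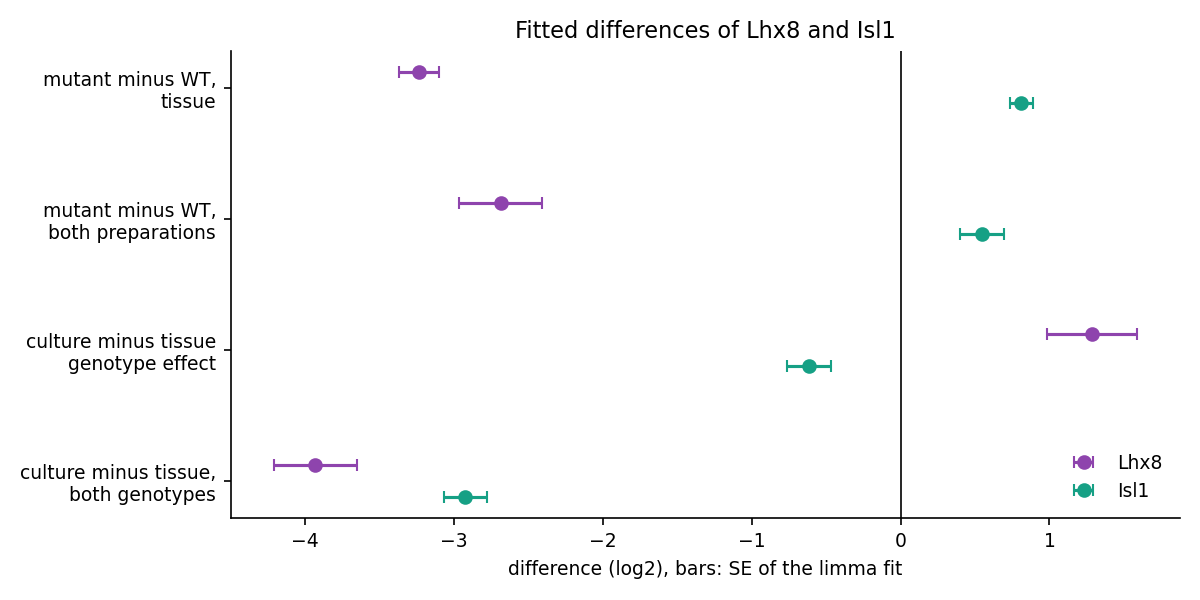
Fitted log2 differences of Lhx8 and Isl1 (points) with the SE of the limma fit (bars) for the genotype effect in tissue, the genotype effect across both preparations, the interaction and the preparation effect. In mutant tissue Lhx8 lies at −3.24 and Isl1 at 0.81, and both lie near −3 or below for culture against tissue.

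Both factors were far dimmer in culture than in tissue. Over both genotypes the difference of Lhx8 was −3.93 ± 0.28, or 15.3-fold lower in culture (limma, adjusted p = 5.0e-05), and that of Isl1 −2.93 ± 0.15, or 7.60-fold lower (limma, adjusted p = 9.4e-06). At the same threshold 38.8% of genes were called, 19.2% lower and 19.6% higher in culture. Among 11063 genes these falls ranked 16 for Lhx8 and 35 for Isl1. Both calls held under each of the 9 alternatives tried, but the size for Lhx8 depends on how low values are treated, and with an offset of 16 in place of the floor it was −3.28.

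The same comparison was read within each genotype. Mutant culture minus mutant tissue was −3.38 for Lhx8 (10.4-fold) and −3.19 for Isl1 (9.12-fold), where 6.57% of genes were at least 2-fold lower and 9.1% higher. WT culture minus WT tissue was −4.66 for Lhx8 (25.4-fold) and −2.57 for Isl1 (5.95-fold), where 6.78% of genes were at least 2-fold lower and 9.73% higher. These are single arrays on the culture side and were not tested on their own, and the value of Lhx8 in mutants rests on its dim mutant culture signal. Over both genotypes, 4 of 4 red blood cell genes tested and 3 of 5 endothelial genes were called lower in culture (median −4.97 and −1.64). Of all genes 19.2% were so called and 19.6% were called higher. Other lists fell too: 3 of 4 MGE genes were lower and 1 higher, and 4 of 6 neuronal genes were lower and 1 higher. Of 12 regulators of ventral forebrain patterning 7 were lower and 2 higher, and of 13 LIM-domain factors and cofactors 6 and 0. Of 8 astrocyte genes 4 were higher and 2 lower. The deposited signal summed over the 4 red blood cell genes was 17.7 in mutant culture and 18.2 in WT culture, against 8114 to 9261 in mutant tissue and 11184 in WT tissue. Over the 5 endothelial genes it was 216 in mutant culture and 157 in WT culture, against 870 to 970 in mutant tissue and 1019 in WT tissue. The part of any of these lists in the culture result was not tested.

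Ordered by level, the brighter Isl1 probe set was highest in mutant tissue, then WT tissue, mutant culture and WT culture. The order for Lhx8 was WT tissue, mutant tissue, WT culture and mutant culture. Only mutant tissue was replicated, with an SD of 0.04 for Lhx8 and 0.02 for Isl1, so the order of the 2 cultures for Isl1 rests on 1 array each and is not shared by its second probe set.

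The genes that carry out acetylcholine synthesis and loading were dim, Chat in the middle of the signal range in tissue and low in culture, and Slc18a3 low on all arrays. Chat, the synthesizing enzyme, read 23.3 and 14.8 in mutant tissue and 36.1 in WT tissue, and 3.23 in mutant culture and 3.07 in WT culture. Its highest value, in WT tissue, stood at the 54.2 percentile of that array. Both culture values lay under the floor. In tissue the 2 mutant values lay below the WT value. In a fit without the filter the difference was −0.85 ± 0.47 (limma, adjusted p = 0.54).

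Slc18a3, the vesicular acetylcholine transporter, read 4.09 and 1.23 in mutant tissue and 13.6 in WT tissue, and 3.29 in mutant culture and 4.14 in WT culture. WT tissue was the 1 array above the floor, at its 32.7 percentile. No detection calls were used here, so whether this signal is above background is unknown and no fold is given. In the fit without the filter the tissue difference was −1.30 (limma, adjusted p = 0.037), but both mutant arrays sat at the floor there, so their spread in that fit was 0.

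Ngfr, the p75 receptor, was dim on all arrays. Its brightest probe set, 1454903_at, read 21.3 and 18.4 in mutant tissue and 22.3 in WT tissue, and 20.7 in mutant culture and 23.3 in WT culture. These values span the 41.2 to 47.4 percentiles. The deposited signals of the 3 mutant arrays lay below both WT signals, but by little, and after quantile normalization mutant tissue, at 4.40 and 4.24 log2, stood on either side of WT tissue at 4.37. Its other probe sets, 1421241_at and 1450177_at, never exceeded 5.54. Without the filter Ngfr differed by −0.13 ± 0.23 across both preparations (limma, adjusted p = 0.87). That a probe set this dim shows no difference does not show that the transcript did not differ.

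Genes that work beside the 5 were read from lists chosen for their function, as counts next to the median of all genes tested, which lay within 0.01 of 0 in each genotype comparison. Of 20 genes of cholinergic transmission, 9 were tested and 0 passed for genotype in tissue or across both preparations (median 0.02 and −0.07). At an unadjusted limma p under 0.05 they numbered 1 in tissue and 1 across both, where 3209 and 1443 of all genes tested did so. The choline transporter Slc5a7 read 4.42 and 4.59 in mutant tissue and 6.56 in WT tissue, and 3.46 in mutant culture and 14.9 in WT culture. The acetylcholinesterase gene Ache read 3.35 and 6.04 in mutant tissue and 15.2 in WT tissue, and 6.83 in mutant culture and 4.26 in WT culture. Both were too dim to test, as were 7 other members of this list.

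Of 18 neurotrophin genes, 10 were tested. In tissue 3 were higher and 0 lower (median 0.32), against 8.59% and 6.7% of all genes tested, and across both preparations 0 passed (median 0.37), with 7 at an unadjusted limma p under 0.05. Kidins220, a scaffold protein of neurotrophin receptors, rose in tissue by 0.63 (limma, adjusted p = 0.00096). The p75-interacting protein genes Maged1 and Bex3 rose there by 0.48 and 0.30 (limma, adjusted p = 0.0061 and 0.020).

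Among the other LIM-domain factors and their cofactors, tissue showed changes in both directions: of 13 tested, 3 rose and 4 fell (median 0.13), against 8.59% and 6.7% of all genes, while across both preparations 0 passed (median −0.03), with 6 at an unadjusted limma p under 0.05. Lhx9, a LIM-homeodomain factor of the diencephalon and pallium, read 131 and 115 in mutant tissue and 4.10, under the floor, in WT tissue (limma, adjusted p = 9.7e-06), although another of its probe sets differed by −0.20. Lhx2, a factor of forebrain progenitors, rose by 0.98 ± 0.11 in tissue (limma, adjusted p = 8.3e-05), with 840 and 867 in mutant and 428 in WT. Ssbp3, which binds Ldb1 complexes, rose by 0.84 ± 0.11 (limma, adjusted p = 0.00043), by both of its probe sets.

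The falls in this list were smaller than that of Lhx8. The LIM-only genes Lmo1 and Lmo3, whose proteins compete for Ldb1, fell by 0.72 and 0.69 in tissue (limma, adjusted p = 0.00045 and 0.0064). Lhx6, which is expressed with Lhx8 in the MGE and specifies its interneurons, fell by 0.54 ± 0.09 in tissue (limma, adjusted p = 0.0021) by its brighter probe set, while its other differed by 0.30. Its culture difference was −1.23, and the interaction, −0.69 (limma, adjusted p = 0.032), had the opposite sign to that of Lhx8. With no trend on intensity 0 interactions were called among all genes tested, so this call was lost there. The fourth, Ldb2, a close relative of Ldb1 that is named after its value was seen, fell by 1.11 ± 0.30 (limma, adjusted p = 0.025). That was by its brighter probe set, while another differed by 0.34. Ldb1 itself differed by 0.13 in tissue (limma, adjusted p = 0.58) and Lmo4 by 0.09 (0.62).

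Among 23 regulators of ventral forebrain patterning, 12 were tested. In tissue 4 rose and 3 fell (median 0.22), against 8.59% and 6.7% of all genes, and across both preparations 1 rose and 0 fell (median 0.22), against 0.814% and 0.253%. That gene was Nr2f1, a nuclear receptor of forebrain regional identity. It read 3852 and 3861 in mutant tissue and 1478 in WT tissue, and 1671 in mutant culture and 870 in WT culture. Its rise across both was 1.23 ± 0.12 (limma, adjusted p = 0.0038), and it held with either mutant tissue array left out (0.016 each).

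Gbx2, a homeodomain factor of the MGE mantle and the diencephalon, rose in tissue by 3.14 ± 0.30 (limma, adjusted p = 3.7e-05), with 124 and 123 in mutant and 14.5 in WT. In culture it read 20.1 in mutant and 22.8 in WT. Its relative Gbx1, a factor of basal forebrain cholinergic neurons in mice, was under the floor on all arrays. Otx2, a forebrain patterning factor, rose by 1.26 ± 0.15 (limma, adjusted p = 0.00014) and Gsx2, a progenitor factor mainly of the lateral ganglionic eminence, by 0.69 ± 0.15 (0.0076). The ventral morphogen gene Shh fell in tissue by 2.46 ± 0.38 (limma, adjusted p = 0.00097), with 66.0 and 30.1 in mutant and 240 in WT, and its receptor and target Ptch1 fell by 0.52 ± 0.10 (0.0033). The third that fell, the homeodomain gene Vax1, likewise named after its value was seen, did so by 0.97 ± 0.24 (limma, adjusted p = 0.019). Nkx2-1 differed by 0.71 ± 0.31 (limma, adjusted p = 0.16) and Zic1 by −0.07 (0.74). With no trend on intensity, none of the tissue calls of the genes named from these lists held, nor did they without the filter on dim genes. The call of Nr2f1 across both preparations was lost in the same 2 settings (limma adjusted p = 0.17 and 0.37).

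**Figure D3:**
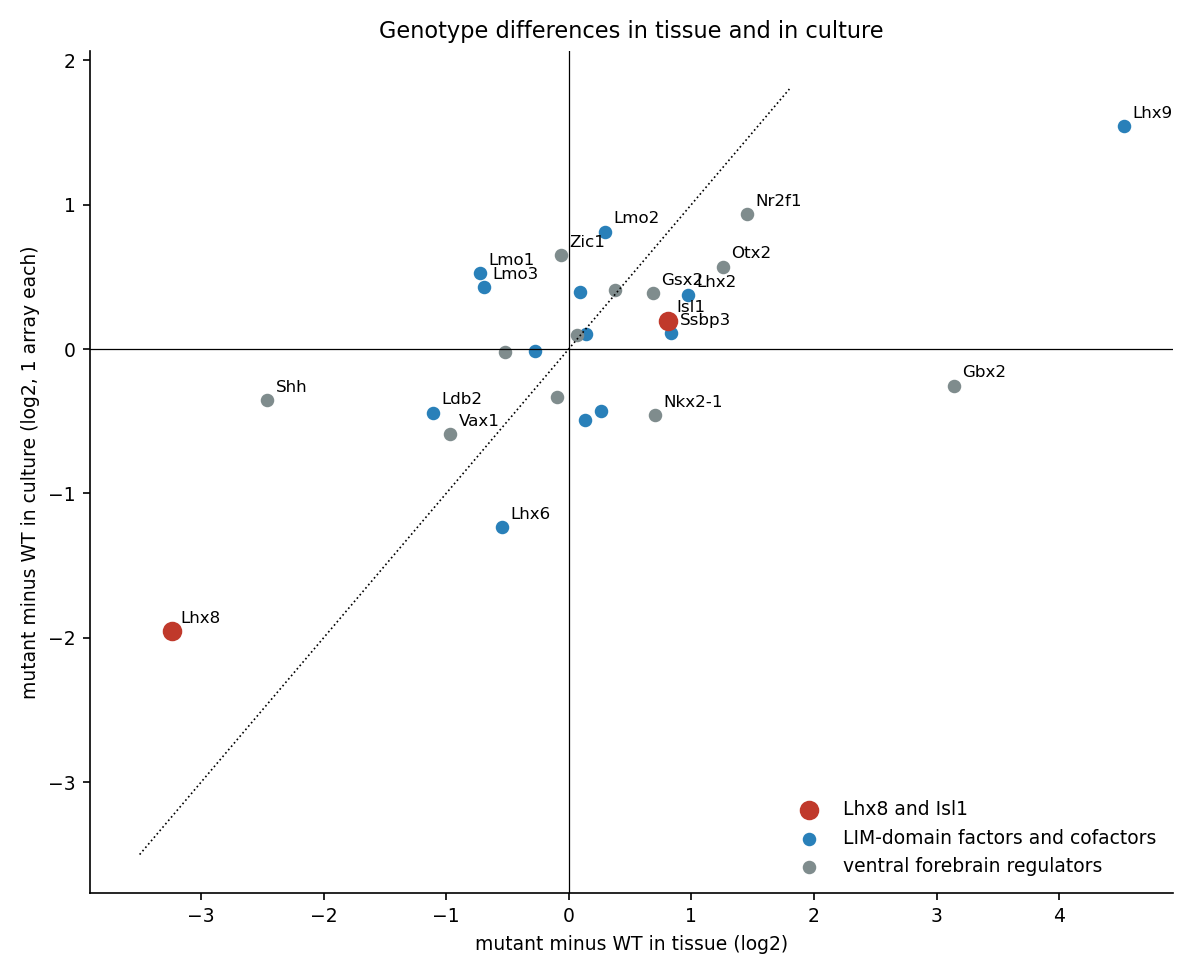
Mutant minus WT differences (log2) in tissue (horizontal) and in culture (vertical, 1 array each) for Lhx8 and Isl1, the LIM-domain factors and cofactors, and the ventral forebrain regulators, with a dotted line of equality. Lhx8 is low on both axes at −3.24 and −1.95, while Isl1 lies at 0.81 and 0.20 in a group with Lhx2, Ssbp3 and Gsx2.

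Striatal projection neurons and motor neurons also express Isl1, so their markers were read beside it. Of 9 striatal projection neuron genes tested, 1 was higher and 3 lower in mutant tissue (median −0.89), against 8.59% and 6.7% of all genes. The deposited signal summed over these 9 was 5442 and 5372 in mutant tissue and 5601 in WT tissue, and 3690.3 in mutant culture and 3266 in WT culture. Most of this sum in tissue was Bcl11b (2699 and 2471 in mutant, 2136.5 in WT) and Meis2 (1981 and 2017.5 in mutant, 1944 in WT). The 3 lower genes, Tac1, Ebf1 and Zfp503, were far dimmer and weigh little in it, so the near-equal sums do not speak for them. Of 4 motor neuron genes tested, the 1 that was higher in mutant tissue was Olig2, which the oligodendrocyte lineage also expresses, and the defining motor neuron gene Mnx1 was at the floor on all 5 arrays. Of 4 neural crest and mesenchyme genes, relevant to Ngfr, the 1 that was higher in mutant tissue was Sox10, which the oligodendrocyte lineage list also holds, and 0 were lower. Their deposited signals summed to 219 and 198 in mutant tissue and 201 in WT tissue, and to 354 in mutant culture and 359 in WT culture.

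The genes most like each factor were found from the root mean square difference of log2 profiles over the 5 arrays, each centred on its own mean. Isl1 had close neighbours. Gsx2 differed from it by 0.11, then Rhbdl3, a rhomboid protease family gene, by 0.18, Mycl, a Myc family factor, by 0.18, the Notch ligand gene Dll1 by 0.29, and the selenoprotein gene Selenop by 0.30. For Gsx2 mutant culture minus mutant tissue was −2.90, against −3.19 for Isl1.

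By this measure, which also depends on the size of the changes, Lhx8 had no such close neighbour. Its nearest was Crabp2, a retinoic acid binding protein gene, at 0.86. The embryonic globin gene Hbb-bh1 (1.02), the cell cycle factor E2f2 (1.05), Dleu7 and the transcription factor gene Ebf1 (1.08 each) followed. Crabp2 in mutant culture and Hbb-bh1 in both cultures were at the floor. Of these 5, Ebf1 had the largest tissue difference, −1.50, against −3.24 for Lhx8. In shape alone Ebf1 was close to Lhx8, with a Pearson r of 0.987, against 0.879 to 0.923 for the others. These Ebf1 values are those of its brightest probe set. Its other probe sets differed by −0.51, −0.85 and −0.69 in tissue and by −1.37, −1.22 and −1.74 in culture. Their falls were thus larger in culture, unlike that of Lhx8. The neighbours of Isl1 had an r of 0.994 to 0.999 with it. All neighbours were picked for closeness on these same 5 arrays, so a high r follows in large part from that choice. Lhx8 and Isl1 differed from each other by 1.64, with a Pearson r of 0.65 over 5 arrays that share the tissue and culture split.

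**Figure D4:**
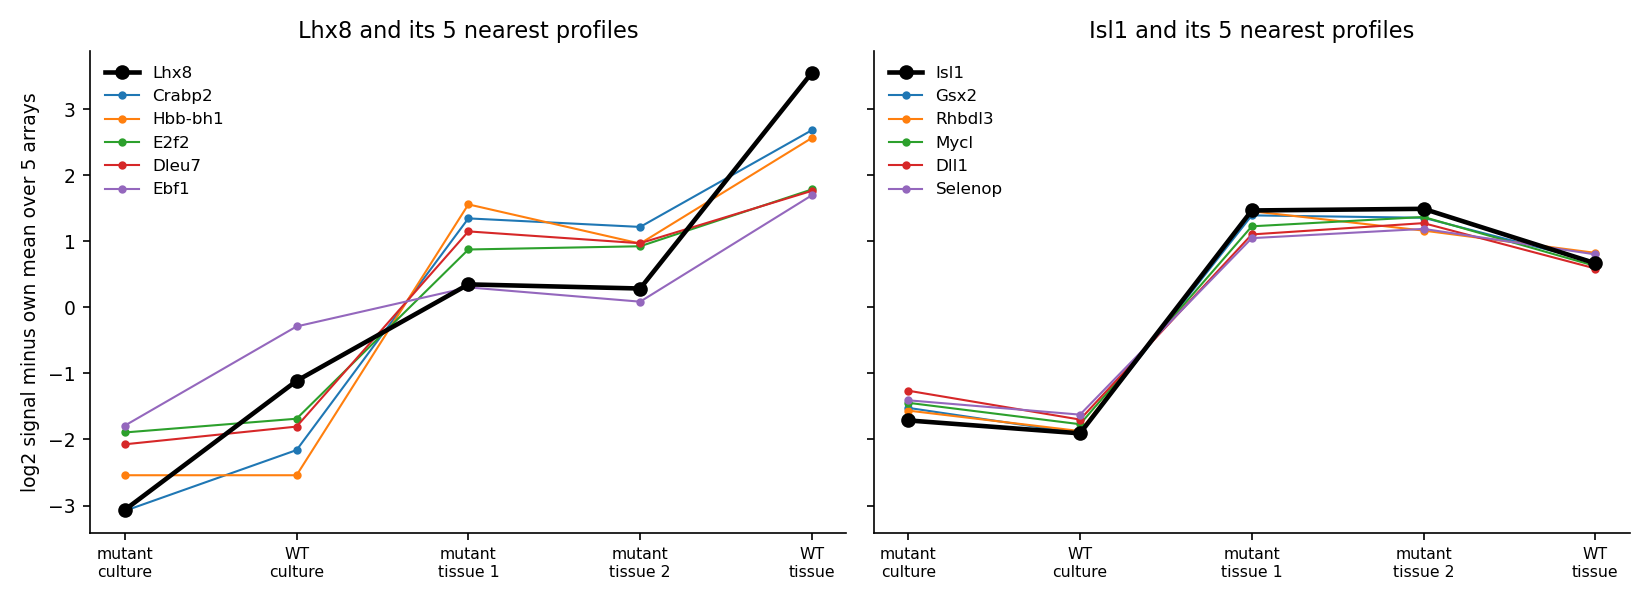
Log2 signal minus each gene's own mean over the 5 arrays for Lhx8 and Isl1 (thick black) and the 5 genes nearest to each. The Isl1 neighbours follow it on all arrays, within 0.30 as a root mean square, while those of Lhx8 lie 0.86 or more away.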

How the data were processed

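The values deposited by the authors are linear intensity, with 1 number for each probe set on each array. The scanner and summarization software was not given in the labels or files used here. With the lowest and highest 2% of probe sets removed, every array had a mean intensity of 150.001 as deposited, and array medians ran from 26.2 to 29.8, or 0.183 log2, so arrays were quantile normalized. Symbols came from the platform annotation (34958 of 45101 probe sets with 1 symbol, 932 with several, not used). The brightest probe set stood for each gene. Tests were made in limma (version 3.58.1, R 4.3.3), with a prior variance that follows intensity and a threshold of 0.05 on the adjusted p. The tissue fit used 3 arrays, the additive fit of genotype and preparation 5 arrays, and the interaction a fit of all 4 groups. In the tissue and interaction fits a gene's own spread came from the mutant tissue pair alone, with 1 residual degree of freedom. In the additive fit, with 2, it came also from the departure of the groups from additivity. Limma combined this spread with the prior variance, estimated over all genes tested. The prior counted for 10.9 degrees of freedom in tissue, 8.57 in the interaction and 5.95 in the additive fit, so each SE and p-value rests mostly on it. Between the mutant tissue arrays the log2 difference had an SD of 0.324, so they were not copies of each other. No detection calls were used, and the number of arrays limits the precision. The alternatives tried were the deposited scaling, a lower floor, an offset in place of the floor, no filter, no trend, averaged or separate probe sets, and leaving out either mutant tissue array.

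The 5 genes and all lists were chosen with earlier results of these data known, the neuronal genes last of all. All probe sets of the 5 genes are named. From 4 lists, genes called across both preparations, at most 6 a list called in tissue, and a short set of genes given whatever their values are named, some of which are not reported here; other lists appear as counts. All 5 genes matched a RefSeq promoter window.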

Additional observations from a re-analysis of the deposited data

Results flagged for a closer look

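The genotype effect of Lhx8 differed between culture and tissue by 1.28 ± 0.30 on the log2 scale (limma interaction, adjusted p = 0.045). The difference was −1.95 in culture and −3.24 in tissue, with mutants lower on 3 of 3 arrays. That of Isl1 differed by −0.62 ± 0.15 (limma interaction, adjusted p = 0.045), with 0.20 in culture and 0.81 in tissue.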

How the results depend on the processing

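Of 131 recomputed values over 9 alternatives, 98 were classed as the same and 0 as reversed. The values mix counts of called genes with differences of Lhx8 and Isl1. A count was the same if it stayed within a set fold of the main count, and counts cannot reverse. A difference was the same if it kept its direction and side of the threshold. Where there was no test, it had to stay within the spread of the mutant tissue pair. The causes of the other changes were not tested. Genes called were 118 across both preparations, 1691 in tissue, 4297 for preparation and 496 for the interaction, and 407 differed at least 2-fold in culture. Without the filter on dim genes they were 0 (limma, with 1713 at an unadjusted p under 0.05), 389, 1894, 584 and 2470. That setting left Lhx8 across both at −2.69 (limma adjusted p = 0.40), Isl1 in tissue at 0.81 (0.090), and the interactions at 1.28 (0.19) and −0.62 (0.14). Without the intensity trend 4 genes were called across both, 2 in tissue and 0 for the interaction (limma, 1681 unadjusted), with Lhx8 at −2.69 across both (0.15) and −3.24 in tissue (0.068), Isl1 at 0.81 in tissue (0.12), and interactions of 1.28 (0.24) and −0.62 (0.32). Averaging probe sets left 35, 489 and 4 calls across both, in tissue and for the interaction, with interactions of 1.28 (limma adjusted p = 0.15) and −0.76 (0.17) and Isl1 in culture at 0.069. Testing every probe set gave 6742 preparation calls and 784 2-fold differences in culture, with interactions of 1.28 (limma adjusted p = 0.074) and −0.62 (0.078). With an offset of 16 there were 226 2-fold differences in culture and Lhx8 was at −1.27 there, and with the deposited scaling at −1.87. Without either mutant tissue array 35 to 36 genes were called across both, Lhx8 was at −3.29 to −3.23 in tissue, and its interaction at 1.30 to 1.34, the last 2 with no test. No paired analysis was made, because the labels give no link between the arrays of different groups and only mutant tissue had more than 1 array.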
